A study of Mus musculus with 4 samples.

Results

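The 9 interferon response genes Irf9, Stat2, Irf7, Ifi27, Bst2, Isg15, Isg20, Ifit1 and Ifit3 were followed in mouse erythrocyte/megakaryocyte progenitors, on 4 Agilent arrays read in one colour. A gene was included where a probe carried its symbol or an older symbol in the scanner files, and all 9 of 9 were found, among 31703 gene or transcript names on the array. They are read by 11 probes, because Isg15 and Isg20 have 2 probes each, and Ifi27 appears under its older name Ifi27l1. The 4 samples are progenitors of wild-type and of Ezh2-null (Ezh2-/-) mice, taken from fetal liver of E14.5 embryos or from adult bone marrow, all on the C57BL/6 background, with 1 array for each combination. Ezh2 is the histone methyltransferase of the Polycomb repressive complex. The isolation of the cells, the number of animals behind a sample, and the extent and cell type of the Ezh2 deletion are not given in the sources used here.

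Type I interferons bind the receptor chains Ifnar1 and Ifnar2, whose kinases Jak1 and Tyk2 phosphorylate transcription factors that include Stat2. Stat2 and Irf9 act within the complex ISGF3, which binds interferon-stimulated response elements and switches on genes such as Isg15, Bst2 and the Ifit family. Type II interferon acts mainly through gamma-activated sites. In blood-forming tissue, interferon signalling is known to move stem cells out of rest and to shape the progenitors they give rise to.

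To show where such elements lie, the 250 bases before each annotated start were searched in RefSeq's promoter table (build GRCm38.p6), which holds 8 of the 9 genes; Ifi27 was not matched. The response element core was searched as GAAA, 2 bases of any kind, then GAAA, on both strands and with overlaps allowed. It was found in 5 of the 8 genes, Stat2, Bst2, Isg15, Ifit1 and Ifit3, against 2.98% of all 32851 promoters in the table (3.46% of 27025 genes). Among 53 other interferon-induced genes in the table, 20 held it. The upstream stretches of the genes with a match are printed 5′ to 3′ on the strand of the gene, with the matched bases in capitals. Where the stretch overlaps another gene or a longer transcript, only 29 or 30 bases at a match are printed. For Ifit3 these hold the first of its 2 matches.
Bst2 (chr8:71537547-71537622, minus strand): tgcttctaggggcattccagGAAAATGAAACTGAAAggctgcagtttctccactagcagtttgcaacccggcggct
Isg15 (chr4:156200835-156200916, minus strand): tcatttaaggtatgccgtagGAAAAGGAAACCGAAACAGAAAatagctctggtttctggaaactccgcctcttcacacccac
Ifit1 (chr19:34640785-34640813, plus strand): TTTCACTTTCcagtctcagTTTCAGTTTC
Ifit3 (chr19:34583363-34583392, plus strand): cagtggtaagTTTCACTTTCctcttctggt
Stat2 (chr10:128270266-128270295, plus strand): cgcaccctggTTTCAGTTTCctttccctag

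In Isg15 the core occurred 3 times in overlapping register, from 78 to 57 bases before the start, and in Bst2 2 times, from 130 to 115 bases before it. Ifit1 and Ifit3 each held 2 copies on the opposite strand, and the Ifit3 stretch is shared letter for letter by its paralogue Ifit3b. The gamma-activated site, searched as TTCNNNGAA, was found in Bst2, where it overlaps the first core match, and at 1 of the 3 annotated starts of Isg20, against 7.02% of all promoters. Irf9 and Irf7 held neither pattern in this window. A match is a string of letters and not a measured binding site.

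**Figure D1:**
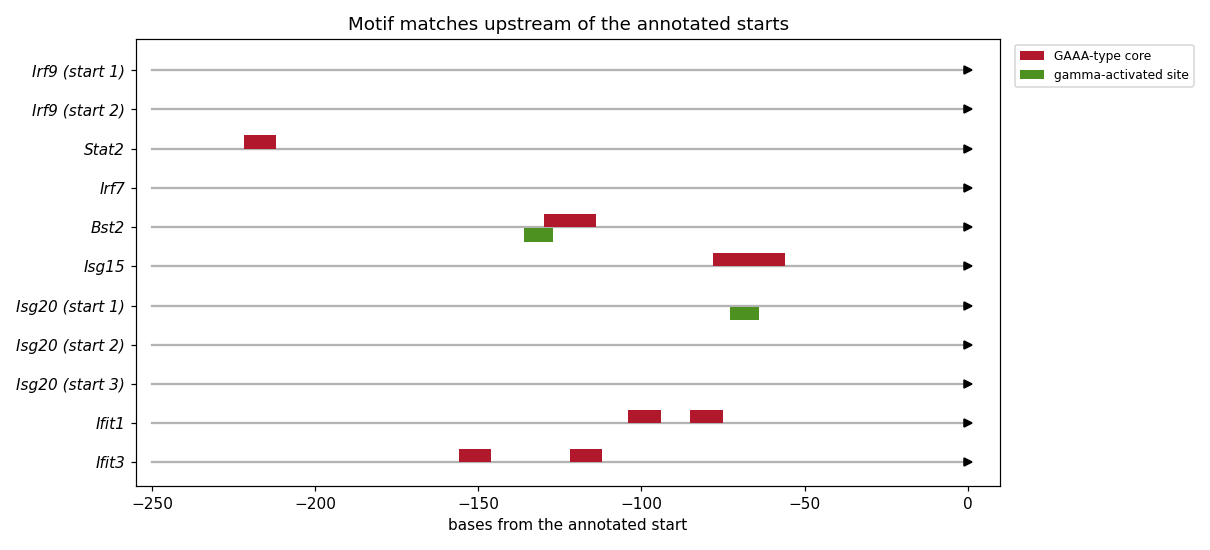
Motif matches in the 250 bases before each annotated start, by gene and start (rows), against the distance from the start in bases (horizontal axis); red boxes are matches to the response element core and green boxes matches to the gamma-activated site. Isg15 and Bst2 carry overlapping core matches, Ifit1 and Ifit3 carry 2 separate ones, and Irf9 and Irf7 carry none of either.

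Between 39% and 46.4% of probes were well above background on each array, and all arrays lay on 1 slide with 1 scan date. Signals are Agilent's processed signals, scaled so that the 75th percentile of the probes well above background everywhere is equal; they have no unit, and levels of different probes are not compared. The lowest signal among probes well above background (the floor) was 19.3 and 13 on the wild-type and Ezh2-null fetal liver arrays and 11.1 and 9.99 on the wild-type and Ezh2-null bone marrow arrays. The error given in parentheses is the scanner software's error of the spot; it covers measurement on 1 array and no spread between animals. Each combination having 1 array, no single pair of arrays can be tested, and a difference is called at 2-fold. The Ezh2 probe, near the end of the transcript, read 33.5 and 35.4 on the wild-type fetal liver and bone marrow arrays, and 194 and 70 on the arrays labelled Ezh2-null, so it was brighter where the gene is labelled deleted. Where this probe lies relative to the deletion is not given in the sources used here, so it checks no label, and directions by genotype below rest on the labels. Erythroid markers were detected on every array (8 of 9), and 6 to 8 of 9 megakaryocyte markers. Fewer cells of a type and less RNA per cell cannot be told apart in these bulk samples.

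Irf9 and Stat2 are subunits of ISGF3. Irf9, the DNA-binding subunit, read 132 (13.8) in wild-type and 23.5 (3.6) in Ezh2-null fetal liver, and 459 (46) and 498 (49.8) in wild-type and Ezh2-null bone marrow. Ezh2-null fetal liver thus stood low, the bone marrow arrays were the highest, and their difference lay within the spot error. Stat2, which carries the activation domain, read 63.1 (6.87) and 18.4 (3.09) in wild-type and Ezh2-null bone marrow, and its readings of 23.3 and 8.45 in wild-type and Ezh2-null fetal liver were not well above background. Irf7, the factor that amplifies interferon production, was well above background on all 4 arrays but dim and nearly level, at 39.2, 27.1, 28.5 and 23.7 (wild-type and Ezh2-null fetal liver, then wild-type and Ezh2-null bone marrow, the order used from here on).

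Ifi27, a small interferon-induced membrane protein, read 572, 348, 4610 and 7100. Both bone marrow arrays exceeded both fetal liver arrays. Its paralogue Ifi27l2b ran the other way on its detected probe, at 432, 277, 123 and 110, while Ifi27l2a was well above background only in Ezh2-null bone marrow (16.8). The Ifi27 probe shares at most 7 bases in a row with the probes of these paralogues.

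Isg20, an RNA exonuclease, read 71.1, 30.8, 747 and 1170 on its brighter probe and 67, 41.1, 231 and 536 on the other. The probes gave the same order of the arrays. Between bone marrow and fetal liver the second probe differed less (log2 1.79 in wild type and 3.7 in Ezh2-null, as measured), and between the bone marrow arrays more. Isg15, a ubiquitin-like protein that is conjugated to other proteins, read 33.3, 22.7, 109 and 103 on its brighter probe. Its second probe read 15.2 and 14.2 in fetal liver, not well above background, and 15.1 (3.01) and 24.6 (3.37) in bone marrow. In wild type the second probe gives no fold, since its fetal liver reading did not pass background and its bone marrow reading lies under that array's floor of 19.3.

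Bst2, or tetherin, which holds budding virus particles at the cell surface, read 31.3, 52.8, 202 (20.4) and 13.1 (2.67). Wild-type bone marrow was the highest of the arrays and Ezh2-null bone marrow the lowest, close to that array's floor. Its single probe lies at chr8:74058603-74058662 on the minus strand in mm9, the build named in the scanner files. The probe, shown because the widest genotype difference among these genes rests on it alone, reads:
Bst2 probe: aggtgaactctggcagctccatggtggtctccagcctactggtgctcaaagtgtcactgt

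Ifit1 and Ifit3 are tetratricopeptide repeat proteins that bind viral RNA or partner with one another. Ifit1 was not well above background on any array, with readings from 2.21 to 4.46, so only a bound below the floor is known. Ifit3 read 21.4 in wild-type bone marrow and 4.05, 2.68 and 2.05 on the other arrays (wild-type and Ezh2-null fetal liver, Ezh2-null bone marrow), none of them well above background. One of the probes of the neighbouring Ifit3b behaved alike, reading 26.6 in wild-type bone marrow and 12.1, 10.9 and 4.61 elsewhere without passing background. The Ifit3 and Ifit3b probes share at most 8 bases in a row.

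**Figure D2:**
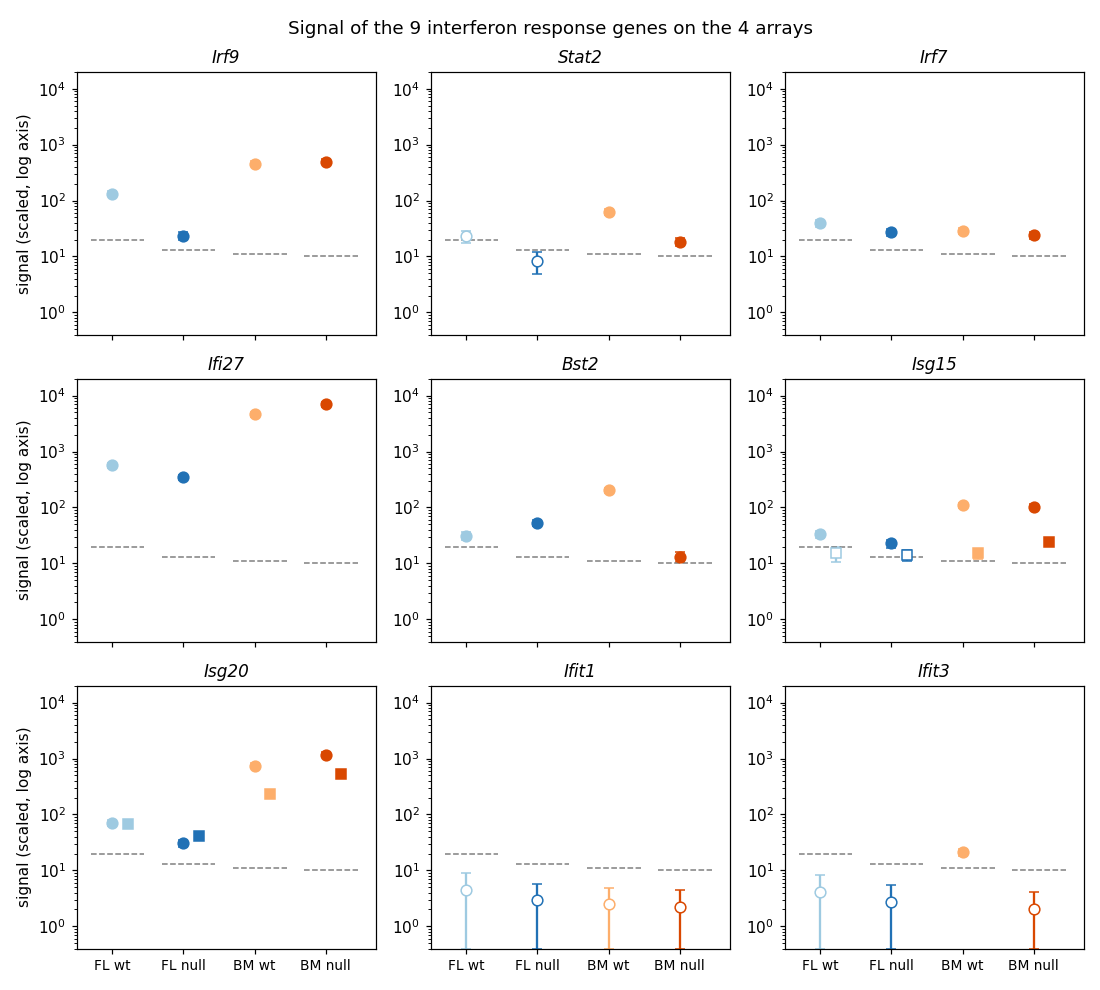
Scaled signal (log axis) of each probe of the 9 genes on the 4 arrays (FL, fetal liver; BM, bone marrow; wt, wild type; null, Ezh2-null), 1 panel per gene. Circles are the brighter probe and squares the second, open symbols are not well above background, bars are the spot error (cut where they pass the axis), and dashed lines are each array's floor; Ifi27, Isg20 and Irf9 stand higher in bone marrow, Bst2 is high in wild-type bone marrow only, and Ifit1 is open throughout.

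In wild-type progenitors, the interferon response genes were mostly brighter in bone marrow than in fetal liver. Of 8 genes with a value, 6 were at least 2-fold higher and 0 lower, where 13.1% of all 15379 genes were higher and 31.8% lower. Isg20 was 10.5-fold higher, Ifi27 8.07-fold, Bst2 6.45-fold, Irf9 3.49-fold and Isg15 3.27-fold, and Stat2 at least 2.71-fold. An "at least" value sets the brighter array against the higher of the dim array's floor and the dim probe's own reading. Ifit3 gave only a bound below the threshold (log2 0.15), and Irf7 differed by a log2 of -0.46, a sign that turned under spike-in scaling (0.81). The median log2 difference of the 8 genes was 1.76 and that of all genes -0.58, so relative to all genes Isg20 stood at 3.97, Ifi27 at 3.59 and Bst2 at 3.27. Scaling on the spike-in RNA moved the median of all genes to 0.66, and the share of called genes that were higher from 29.2% to 94.3% (54.9% with the percentile over all probes, 51.7% after quantile normalization). The differences of Isg20, Ifi27, Bst2 and Irf9 kept their direction and call under all 9 alternatives, with log2 ranges of 2.29 to 4.67, 2.91 to 4.29, 1.02 to 3.96 and 1.28 to 3.08. Isg15 fell below the threshold with all probes averaged (0.84) and with another background correction, normexp (0.22), and Stat2 with the latter (0.00). Hepatocyte markers had a summed level of 659 in wild-type fetal liver and 73.8 in wild-type bone marrow (4 and 2 of 7 well above background; Alb, Afp and Ttr on no array). Plasmacytoid dendritic markers summed to 4050 and 1900, mostly through Siglech (3760 and 1810), and 3 of 4 measured were lower in bone marrow. Relative to all genes Siglech stood at a log2 of -0.48, and its difference reached 0.22 over the alternatives. Lower too were 2 of 3 B lineage and 2 of 3 T and natural killer markers. Of 8 erythroid markers 5 were lower and 2 higher, with Car1 96.1-fold higher. The part of these cells in the differences was not tested.

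Between the Ezh2-null arrays the source difference was wider for 4 of these genes and turned for Bst2. Isg20 was 37.9-fold higher in bone marrow, with the 8th highest log2 difference of 16684 genes. Irf9 was 21.2-fold higher, Ifi27 20.4-fold and Isg15 4.56-fold, whereas Bst2 was 4.03-fold lower. The second Isg15 probe gave a log2 of 0.80 as measured, within 2-fold, with its fetal liver reading not passing background. The calls of Isg15 in both genotypes, and its effect in the fit below, thus rest on its brighter probe. Of 7 genes with a value, 4 were higher and 1 lower, against 10.4% and 26.9% of all genes. Stat2 had a bound of 0.51 on the log2 scale, which passed 2-fold under 4 alternatives (up to 1.24), and Irf7 a difference of -0.20, whose sign turned under 3 alternative scalings (up to 0.54). The median of the 7 genes was 2.19 and that of all genes -0.51 (0.20 with spike-in scaling), and relative to it Isg20 stood at 5.76, Irf9 at 4.91 and Bst2 at -1.50. The share of called genes that were higher was 27.9%, and 68.7%, 64.2% and 52.1% with spike-in scaling, the percentile over all probes and quantile normalization. With normexp, Bst2 (-0.91) and Isg15 (0.77) fell below the threshold. Summed marker levels in fetal liver and bone marrow were 138 and 2620 for B lineage, the latter mostly Vpreb1 (2200). Of 6 measured B lineage markers 4 were higher and 0 lower. The sums were 151 and 74.2 for hepatocytes and 5210 and 17500 for erythroid cells (3 of 8 higher, Car1, Car2 and Ahsp, and 2 lower). Plasmacytoid dendritic markers summed to 4860 and 1980, mostly through Siglech (4260 and 1880), with 2 of 6 lower, Cox6a2 and Siglech. The part of these cells was not tested. The wild-type and the Ezh2-null pair share no array: Irf9, Ifi27, Isg15 and Isg20 were called higher in both, which is 66.7% of the genes called higher in wild type and 100% of those in Ezh2-null. Over all genes the corresponding shares were 36.5% and 42.5%.

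The additive limma fit of source and genotype over all 4 arrays, with 1 residual degree of freedom, used the arrays of one genotype as the repeat of the other. The source effect (bone marrow minus fetal liver, log2) was 4.32 (SE 0.58) for Isg20, with a limma p of 0.000597 and a Benjamini-Hochberg adjusted p of 0.15. For Ifi27 it was 3.68 (SE 0.50, limma adjusted p 0.154), for Irf9 3.10 (SE 0.70, limma adjusted p 0.238) and for Isg15 1.95 (SE 0.42, limma adjusted p 0.229). Bone marrow exceeded fetal liver in both genotypes for these 4 genes, which had an unadjusted p under 0.05, and 0 of 8 genes in the fit passed adjustment, as did 0% of all 16249 genes, of which 2662 had an unadjusted p under 0.05. The limma adjusted p ranged from 1.95e-13 to 0.297 for Isg20 and from 1.85e-19 to 0.307 for Ifi27 over the alternatives, and from 2.86e-06 to 0.336 for Irf9 and 0.00476 to 0.756 for Isg15. Bst2, which differed in opposite directions in the genotypes, had a source effect of 0.62 (SE 1.0, limma adjusted p 0.757). In this fit the signals were first raised to the highest floor.

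**Figure D3:**
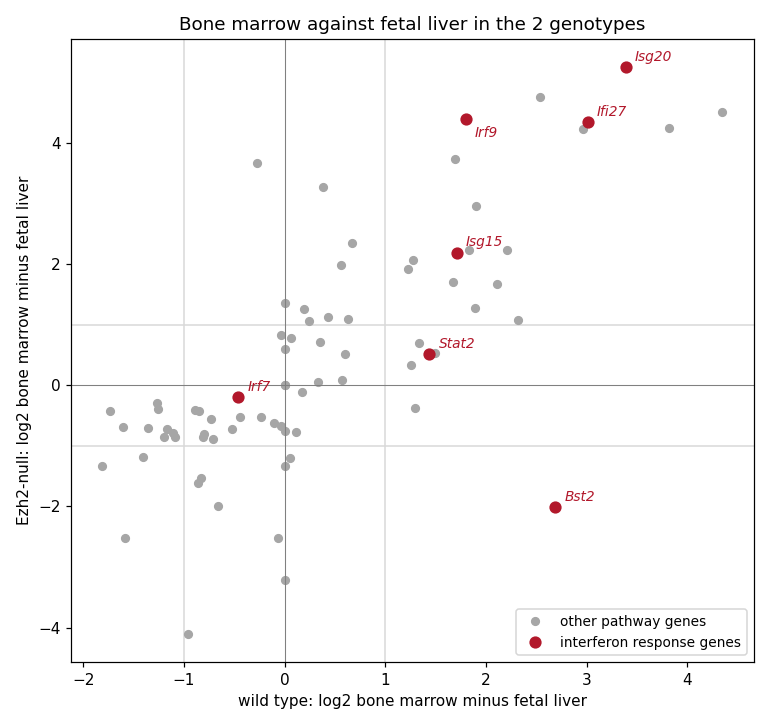
Log2 difference between bone marrow and fetal liver in wild type (horizontal axis) and in Ezh2-null (vertical axis) for 7 interferon response genes (red) and 70 other genes of the interferon pathway (grey), with the 2-fold thresholds as pale lines; values that are bounds are plotted at the bound. Isg20, Ifi27, Irf9 and Isg15 lie at the upper right, and Bst2 alone among the red points lies at the lower right.

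In fetal liver, the array labelled Ezh2-null read lower than wild type for Irf9 and Isg20. Irf9 was 5.6-fold lower (log2 -2.48, rank 119 from the lowest of 16252 genes) and Isg20 2.3-fold lower (-1.20). Ifi27 (-0.72), Isg15 (-0.55) and Irf7 (-0.53) lay below wild type within 2-fold, and Bst2 (0.75) above it, with normexp at -0.13 and with spike-in scaling at 1.25, past 2-fold. Of 6 genes with a value, 0 were called higher and 2 lower, against 15.4% and 13.3% of all genes. The median of the 6 was -0.64, that of all genes -0.14 (0.27 with spike-in scaling), and relative to all genes Irf9 stood at -2.35. Spike-in scaling moved the share of called genes that were higher from 53.7% to 84.1%, and the percentile over all probes moved it to 41.7%. Irf9 kept its call under all 9 alternatives (-2.86 to -1.22), while Isg20 lost it under normexp (-0.78), spike-in scaling (-0.71) and the average of its probes (-0.95). Hepatocyte markers had a summed level of 659 in wild-type and 151 in Ezh2-null fetal liver. Erythroid markers summed to 14300 and 5210, of which Ahsp gave 8800 and 1760. Of 8 erythroid markers 3 were lower (Ahsp, Alas2 and Epor) and 1 higher (Tfrc). Megakaryocyte markers summed to 583 and 856, with 1 of 8 higher (Itgb3) and 0 lower. The part of these cells in the differences was not tested.

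In bone marrow, Bst2, Stat2 and Ifit3 read lower on the array labelled Ezh2-null. Bst2 was 15.4-fold lower on the Ezh2-null array (log2 -3.95), with only 4 of 15275 genes lower still, and ranged from -3.99 to -2.06 over the alternatives. Stat2 was 3.43-fold lower (-1.78), losing its call under normexp (-0.69), and Ifit3 at least 2.14-fold lower (-1.10), losing it under normexp, the percentile over all probes and quantile normalization (-0.49, -0.99 and -0.90). Of 8 genes with a value, 0 were higher and 3 lower, against 4.54% and 7.64% of all genes. Ifi27 (0.62), Isg20 (0.65), Irf9 (0.12), Isg15 (-0.07) and Irf7 (-0.27) lay within 2-fold of wild type, although the second Isg20 probe gave 1.21, past 2-fold. The median of the 8 was -0.17 and that of all genes -0.03. 0 of the 2 genes lower in fetal liver and 0 of the 3 lower in bone marrow were shared, where over all genes these shares were 3.85% and 7.11%. Stat2 and Ifit3 had no fetal liver value, as neither fetal liver array passed background for them. Of the 3 genes lower in bone marrow only Bst2 could therefore have been shared, so the lack of overlap is not read as a result.

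Markers of several cell types were also read on the same pair of bone marrow arrays. B lineage markers had summed levels of 123 in wild type and 2620 in Ezh2-null, the latter mostly Vpreb1 (2200), with 2 and 6 of 8 well above background and Ebf1 and Ms4a1 on no array; in fetal liver the sums were 298 and 138. Of 6 measured B lineage markers 5 were higher in Ezh2-null bone marrow, and Pax5 was not (log2 -0.19). Megakaryocyte markers, which belong to the sampled lineage, summed to 344 and 869 in bone marrow, with 5 of 8 higher. Of 8 erythroid markers 3 were higher (Klf1, Slc4a1 and Alas2) and 1 lower (Tfrc), where 4.54% of all genes were higher and 7.64% lower. Of 3 measured T and natural killer markers 1 was higher (Cd3e), and of 6 granulocyte and macrophage markers 0 were called. Markers of plasmacytoid dendritic cells, a cell type that carries Bst2 at a high level, summed to 1900 and 1980, almost wholly through Siglech (1810 and 1880), with 0 of 5 measured markers called and Klk1 and Ptcra on no array. The part of RNA from these cell types in the differences of Bst2, Stat2 and Ifit3 was not tested.

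The genotype effect over both sources in the limma fit was -1.32 (SE 1.0) for Bst2, -1.18 (SE 0.70) for Irf9 and -0.99 (SE 0.51) for Stat2, each with a limma adjusted p of 0.996 (0.93 to 1 over the alternatives). For Bst2 the sign differed between the sources, and for Irf9 too; Stat2 was lower on both Ezh2-null arrays as read, but in fetal liver without passing background. 0 of 8 genes had an unadjusted p under 0.05, and 0% of all 16249 genes passed adjustment, with 278 at an unadjusted p under 0.05.

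Set against one another, the genotype differences of the sources parted most for Bst2 and Irf9. The difference in bone marrow minus that in fetal liver was -4.70 for Bst2 and 2.60 for Irf9, the ones past 4-fold among 6 genes detected on all 4 arrays, against 8.68% of 13864 genes lower and 3.29% higher in bone marrow. It was 1.85 for Isg20, 1.34 for Ifi27, 0.48 for Isg15 and 0.27 for Irf7. The 13864 genes are a wider set, since they include genes with only a bound in a source. Well above background on all 4 arrays were 11171 genes, for which these shares were not counted. With normexp both calls fell below 4-fold (-1.93 for Bst2 and 1.28 for Irf9), while Isg20 passed it with the percentile over all probes (2.12) and quantile normalization (2.07). With 1 array per combination this difference has no test.

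**Figure D4:**
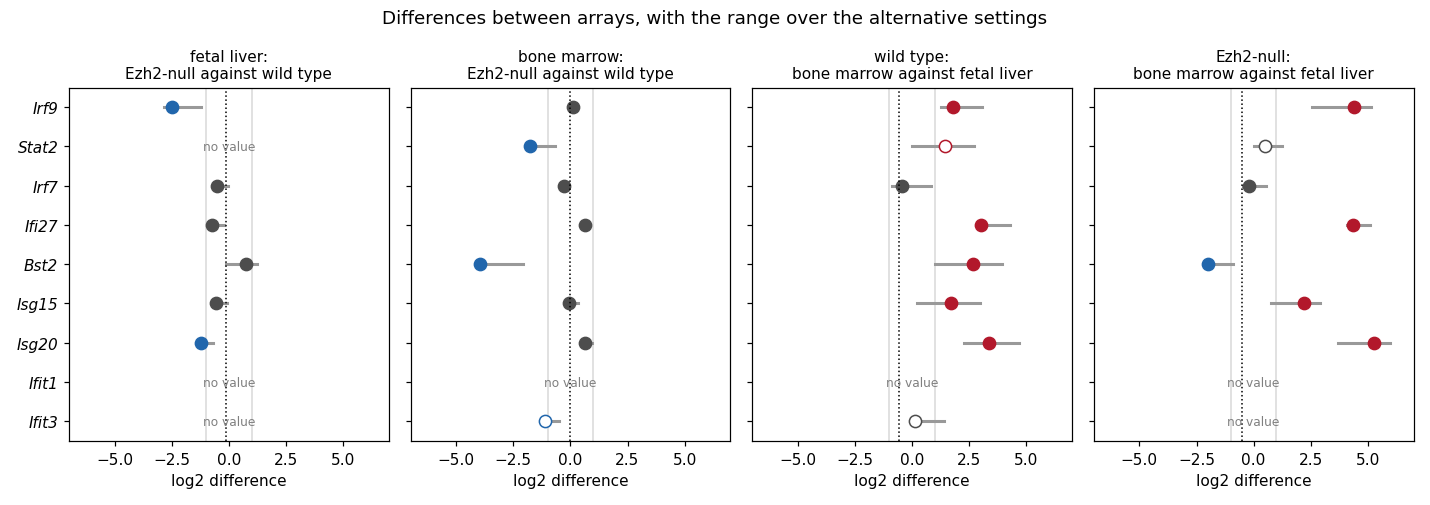
Log2 difference of each of the 9 genes for the 4 pairs of arrays (panels); circles are the values as reported, open where they are bounds, red or blue where past 2-fold (pale lines), grey bars span the alternative settings, and the dotted line is the median of all genes. Genes without a value were not well above background on either array of the pair. The widest source difference is that of Isg20 between the Ezh2-null arrays. The widest genotype difference is that of Bst2 between the bone marrow arrays.

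Upstream of these genes, the receptor chain was unevenly detected. Ifnar2 read 147, 36.3, 216 and 144, so that, like Irf9, it was lowest in Ezh2-null fetal liver. The brightest of 3 Ifnar1 probes read 29.6, 54.1, 10.5 (not well above background) and 23.9, and the other probes were above background in fetal liver only. Jak1 read 33.2, 71.6, 5.65 (not well above background) and 12.4, higher in fetal liver. Tyk2 was well above background in bone marrow only, at 17.7 and 12.7. Among 15 listed interferon genes on the array, 6 were detected anywhere, and Ifnb1 and Ifng were on none.

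Of 131 other genes of the interferon pathway, 127 are on the array and 82 passed background on 1 array or more. In wild type 18 of 75 measured genes were higher in bone marrow and 15 lower (24% and 20%, against 13.1% and 31.8% of all genes). In Ezh2-null 24 of 77 were higher and 12 lower (31.2% and 15.6%, against 10.4% and 26.9%). The 14 genes higher in both were 77.8% and 58.3% of those called, against 36.5% and 42.5% over all genes. Among the genes with the widest differences were Lgals3bp, a secreted galectin-binding protein (14.2-fold in wild type, 19.1-fold in Ezh2-null), Oas3, a sensor enzyme for double-stranded RNA (at least 7.79-fold and 18.8-fold), and Cmpk2, a mitochondrial nucleotide kinase (5.8-fold and at least 27.1-fold). Irf1, a transcription factor induced by type II interferon, was at least 20.4-fold and 22.8-fold higher on its brighter probe. Both differences depended on the setting and changed sign over the alternatives. Their log2 values ran from -1.14 to 5.62 in wild type and from -0.79 to 5.25 in Ezh2-null. Lower in wild-type bone marrow were Ifi27l2b (3.51-fold), Ifi204 (at least 3.31-fold), Ifna7 (3.04-fold) and Jak1 (at least 2.98-fold). In Ezh2-null, the phosphatase Ptpn2 (17.2-fold), Jak2 (at least 9.28-fold), Jak1 (5.79-fold) and the deoxynucleotide hydrolase Samhd1 (5.72-fold) were lower. Under some alternatives the wild-type differences of Oas3 (0.73), Cmpk2 (0.91), Ifi27l2b (-0.54), Ifi204 (-0.45), Ifna7 (-0.33) and Jak1 (-0.30) and the Ezh2-null difference of Samhd1 (-0.46) lay within 2-fold, in log2. The pathway genes' median log2 differences were 0.00 and -0.11, against -0.58 and -0.51 for all genes.

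By genotype, 7 of 67 pathway genes were higher and 10 lower in Ezh2-null fetal liver (10.4% and 14.9%, against 15.4% and 13.3% of all genes), with a median of -0.05. Samhd1 (5.15-fold), Jak2 (at least 4.8-fold), Ptpn2 (4.68-fold) and the phosphatase Ptpn11 (3.17-fold) were higher. Ifnar2 (4.06-fold), Ly6e (3.16-fold), Ube2l6, the conjugating enzyme for Isg15 (3.15-fold), and the inhibitor Socs1 (at least 2.4-fold) were lower. Samhd1 (0.86), Jak2 (0.60), Ptpn2 (0.57) and Socs1 (-0.76) lay within 2-fold, in log2, under at least 1 alternative. In bone marrow, 6 of 74 were higher and 4 lower (8.11% and 5.41%, against 4.54% and 7.64%), with a median of -0.09. Sting1, the adaptor of cytosolic DNA sensing, was 8.78-fold higher, Rtp4 4.03-fold, Irgm1 at least 3.11-fold and the nucleic acid sensor Zbp1 2.18-fold. Ifit3b (at least 2.67-fold), the interferon gamma receptor chain Ifngr1 (2.19-fold), Parp9 (at least 2.12-fold) and Nmi (2.11-fold) were lower. Irgm1 (0.00), Zbp1 (0.46), Parp9 (-0.24), Nmi (-0.64) and Ifngr1 (-0.99) lay within 2-fold, in log2, under at least 1 alternative, and Ifit3b kept no difference under 1 or more. Nmi was called lower in both sources, 10% and 25% of the pathway genes called lower (3.85% and 7.11% over all genes), and 0 were called higher in both (5.31% and 19.2% over all genes).

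Isg20 had the widest range of log2 levels, 5.25, among the interferon response genes detected on all 4 arrays. After centring each gene's log2 levels over the arrays, the genes nearest to it by Euclidean distance, out of 11170, were Stard10 (0.56), Ces2g (0.68) and Btnl10 (0.72). Among the interferon response genes, Ifi27 lay nearest to it (0.72) and Bst2 farthest (5.32), with Irf9 at 1.56, Isg15 at 2.47 and Irf7 at 4.72. Over 4 arrays this distance describes these samples only.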

How the data were processed

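Trizol-extracted total RNA (250 ng) was amplified together with one-colour spike-in RNA and labelled with Cy3, per the labels' protocols. The authors deposited intensity values from Agilent's Feature Extraction software, version 10.7.3.1, background-subtracted and detrended, per the file headers. Control spots and outlier-flagged spots were left out, and spots of a probe were averaged. Of 39418 probes, 26048 were named by accession through RefSeq's table and the rest by the symbols in the files. Signals were scaled to a common 75th percentile over 12874 probes well above background on all 4 arrays, and a gene was read from its brightest probe. Calls used 2-fold (4-fold for a difference of differences). The fit used limma 3.58.1 in R 4.3.3 with Benjamini-Hochberg adjustment. It was also run on simulated data with additive effects and noise only. That run cannot show how the fit behaves where the genotype difference depends on the source. The alternatives were 9 other settings, with limma's trend option for the fits. Genes outside the set were named as the receptor chain (1 gene of it is not reported here), as paralogues or as up to 4 pathway genes per direction past 2-fold. The genes and lists were chosen with earlier results of these data known. A p-value here sets an effect against the disagreement of the genotype difference between the sources, moderated over all genes. It measures no spread between repeat arrays or animals, since each combination has 1 array and the animals behind it are not given.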

Additional observations from a re-analysis of the deposited data

Results flagged for a closer look

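Of 6 interferon response genes with a genotype difference in both sources, 4 had opposite signs in the sources. The share of all genes with opposite signs was not counted, so this number of genes is not read as a result. The difference between the sources was not tested, since each combination has 1 array. For Bst2 the genotype difference was 0.75 in fetal liver and -3.95 in bone marrow on the log2 scale, a gap of -4.70. For Irf9 it was -2.48 and 0.12, a gap of 2.60, with the bone marrow value within its spot error of 0.20. For Isg20 it was -1.20 and 0.65, a gap of 1.85, and for Ifi27 -0.72 and 0.62, a gap of 1.34. In the main setting both Ifi27 values, Bst2 in fetal liver, and Irf9 and Isg20 in bone marrow lay within 2-fold. The sign of Bst2 in fetal liver turned under normexp (-0.13). Of 6 measured B lineage markers, 5 were called higher on the Ezh2-null bone marrow array, and Pax5 was not (log2 -0.19). Their summed level there was 2620, mostly through Vpreb1 (2200), against 123 in wild-type bone marrow. The part of these cells was not tested.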

How the results depend on the processing

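Of 18 called differences, 9 kept their direction and call under every alternative run, and of 159 alternative values 14 fell below the threshold, 9 of them with normexp, and 0 called values changed sign. The number of interferon response genes called, by genotype in fetal liver, went from 2 to 1 with normexp and with all probes averaged, and to 3 with no background filter. In bone marrow it went from 3 to 1 with normexp and with detection on every array, and to 2 with the percentile over all probes and quantile normalization. Between the wild-type arrays it went from 6 to 4 with normexp, 5 with all probes averaged and with detection on every array, and 7 with spike-in scaling and no filter. Between the Ezh2-null arrays it went from 5 to 3 with normexp, and to 6 with the other scalings and no filter. Differences of differences past 4-fold went from 2 to 0 with normexp, and to 3 with the percentile over all probes, quantile normalization and no filter. Among all genes, the limma fit called 0 by source, but 1289 with normexp, 959 with the percentile over all probes, 209 with quantile normalization, 138 with detection on every array and 115 with limma's trend. By genotype it called 0, but 14 with normexp and 8 when the percentile was taken over all probes. The causes were not tested, except that detection on every array leaves fewer genes. Counts of all genes past 2-fold, higher and lower, were 2504 and 2155 by genotype in fetal liver, but 793 and 1061 with normexp, 3979 and 751 with spike-in scaling and 3850 and 4662 with no background filter, and detection on every array left 1411 higher. In bone marrow they were 694 and 1167, but 171 and 199 with normexp, 306 and 468 with detection on every array and 1807 and 3163 with no filter. Between the wild-type arrays they were 2016 and 4896, but 5891 and 355 with spike-in scaling, with 712 higher under normexp, and 2330, 2483 and 10033 lower with the percentile over all probes, quantile normalization and no filter. Between the Ezh2-null arrays they were 1731 and 4482, but 710 and 2290 with normexp, 3765 and 2098 with the percentile over all probes, 2695 and 2478 with quantile normalization and 4241 and 1931 with spike-in scaling, with 2444 and 8716 lower under detection on every array and no filter. The pathway list's counts moved with them, for example between 8 and 42 higher and 0 and 26 lower in wild type. No paired analysis was possible because each group has 1 array and the labels give no replicate numbers (source is already a term of the reported fit), and leaving out an array leaves no residual degree of freedom. Genes near an array's floor, such as Bst2 in Ezh2-null bone marrow, are limited by signal over background.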
